A study of Etroplus suratensis with 2 samples.

Results

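The female-only contigs described here are assembled transcripts of the fish *Etroplus suratensis* that were abundant in a pool of female organs and almost without reads in a pool of male organs. They were chosen from measured values: a contig was a member when it had at least 1000 reads in the female library and under 3 in the male library. Of the 96646 contigs in the deposited table, 76 met both conditions. Of the 5230 contigs with at least 1000 female reads these are 1.45%, a share that the choice itself fixes and that is given as a description. The same rule turned round, at least 1000 male and under 3 female reads, was met by 16 contigs, or 0.466% of the 3432 contigs with at least 1000 male reads. The limits are raw reads and the libraries differ in depth, so these shares are not like for like.

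*E. suratensis*, the green chromide or pearlspot, is an egg-laying cichlid of brackish water. The study sequenced 1 pooled RNA library per sex. Each pool mixed 6 organs, with brain, liver, kidney, spleen and muscle in both, testis added in the male pool and ovary in the female pool. The labels name no strain, age, treatment or genotype, and they do not give the number of fish or the proportions in which organs were mixed. The column sums of the counts were 19788173 in the male and 24649400 in the female library.

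A single library stands for each sex, so the spread between fish or pools is unknown, no test was run, and every difference is one between 2 libraries. The contigs carry no gene names or sequences in the files, so no contig could be given a function, and neither ovary nor any other labelled organ could be checked against its marker genes. In a pool of whole organs, fewer cells of a type and less RNA per cell cannot be told apart, and neither can the gonad, the other organs and the individual fish as the place of a difference.

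As background, the sexes of egg-laying fish differ most in the gonad, where growing oocytes store large amounts of maternal messenger RNA and the testis makes sperm. The female liver of such fish is also known for making yolk and egg-envelope proteins under oestrogen. A de novo assembler such as Trinity joins overlapping reads into contigs without a genome. It groups contigs whose sequences share stretches into a component. Contigs of 1 component can be related genes, alleles, or fragments or splice forms that the assembler did not join. The final field of a contig's name, the g number, marks what the assembler set apart as separate genes. Contigs of 1 component with different g numbers are called siblings here. Whether siblings come from the same gene was not tested.

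By the rule every member was well covered in the female pool. The 76 contigs held 1292503 female reads together, which is 5.24% of the female library (95% Wilson interval 5.23 to 5.25), against 45 male reads, or 0.000227% of the male library, a value that the rule keeps near 0. By the authors' FPKM, which divides the reads of a contig by its length and by the library total, they made up 9.79% of the summed female FPKM. Per contig, female reads ran from 1009 to 139818 with a median of 5302, and the authors' female FPKM from 16.7 to 5460 with a median of 163. The highest male FPKM of any member was 0.112. All intervals cover counting error only, since each sex has 1 library. They treat reads as independent, so reads copied by PCR would make them too narrow.

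**Figure D1:**
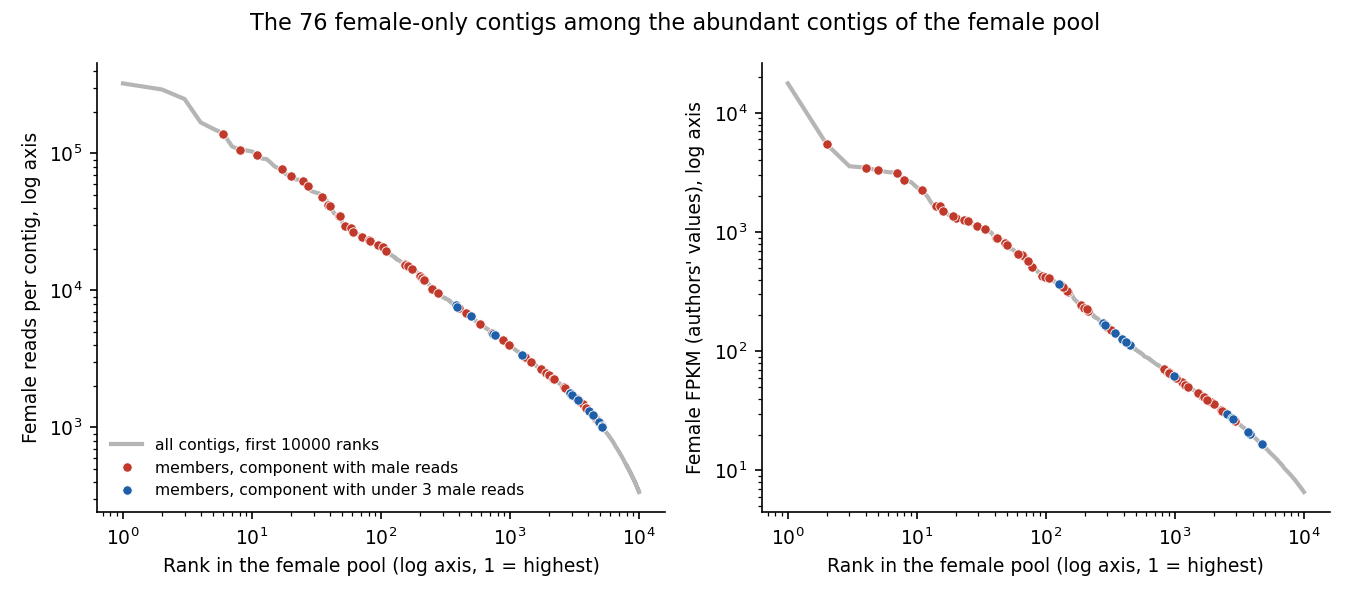
Female reads per contig (left) and the authors' female FPKM (right) against the rank of the contig in the female pool, all on log axes, for the first 10000 ranks. Each dot is 1 of the 76 members, red where its component has at least 3 male reads and blue where it has under 3. Red dots reach rank 6 by reads and rank 2 by FPKM, while the highest blue dots lie at rank 378 by reads and rank 127 by FPKM.

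Members stood among the most abundant contigs of the female pool, and more so per length than by reads. By reads, 2 of the 10 most abundant female contigs were members, 12 of the first 50, 19 of the first 100 and 43 of the first 1000. By the authors' FPKM, 5 of the highest 10 were members, 19 of the first 50, 26 of the first 100 and 53 of the first 1000. The reads were concentrated in few members. The 10 most abundant members held 57.5% of the members' female reads, and the 31 members with at least 10000 reads held 89.7%.

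The most abundant member, TRINITY_DN18926_c1_g17, is 1005 bases long with 51.5% GC and had 139818 female reads and 1 male read. It ranked 6th by reads and 2nd by the authors' FPKM, at 5460 in the female and 0.0482 in the male pool. Scaled by library totals, its ratio of female to male was 112244, with an exact counting interval from 20145 to 4433425, an interval that covers counting error and not the choice of the contig on these reads. This contig alone took 0.567% of the female library.

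TRINITY_DN16940_c5_g12, of 1530 bases, had 106611 female reads and no male read, and its female FPKM was 2735. TRINITY_DN17679_c2_g7, of 1722 bases, had 98225 female reads and 1 male read, with a female FPKM of 2239. TRINITY_DN18776_c1_g4, of 2294 bases, had 77460 female reads and no male read, with a female FPKM of 1325. These 3 contigs held between 77.998% and 84.2% of the female reads of their own components.

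TRINITY_DN16902_c1_g3 was shorter, at 777 bases, with 68964 female reads and 1 male read. Its female FPKM of 3484 was the 4th highest of the female pool. TRINITY_DN18688_c12_g2, of 1814 bases, had 63041 female reads and 1 male read. TRINITY_DN17884_c4_g2, at 3568 bases the longest of the 10, had 57807 female reads and 2 male reads, and ranked 27th by reads but 67th by FPKM. The order of the members by reads thus differed from their order per length.

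Both TRINITY_DN18661_c4_g4 and TRINITY_DN18661_c4_g8 belong to 1 component and were short and GC-rich. The first, of 599 bases and 54.4% GC, had 48260 female reads and no male read, and the second, of 499 bases and 55.1% GC, had 41941 female reads and 1 male read. Their female FPKM values of 3162 and 3299 ranked 7th and 5th in the female pool. TRINITY_DN19026_c2_g1, of 1281 bases, closed the first 10 with 41027 female reads and 1 male read.

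The male side of the rule deserves its own account, since the name "female-only" is strict for some members and not for others. No male read was seen on 42 members, 1 read on 23 and 2 reads on 11. A count of 0 in the male library allows up to 3 counts, or 0.152 CPM (reads scaled to the column sum), whereas the lowest member stood at 40.9 CPM in the female library. Against that floor of 3 counts in the male library, the female level of the 42 members without a male read was, after scaling by column sums, at least 270-fold higher for the lowest and at least 28529-fold higher for the highest. The lower ends of the exact 2-sided counting intervals are wider than this floor and lay at 219-fold for TRINITY_DN17277_c9_g1 and 23201-fold for TRINITY_DN16940_c5_g12, the same contigs. The bound follows the female read number alone, so it ranks depth and not the true ratio. Neither takes account of the choice of the contigs on these same reads.

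Contigs just outside the rule on the male side included more abundant ones. Among contigs with at least 1000 female reads, 17 had exactly 3 male reads, 13 had 4 and 10 had 5. The contig with the highest FPKM of the whole female pool, TRINITY_DN19195_c2_g4, missed the rule by 1 read, with 293312 female and 3 male reads, 650 bases and an FPKM of 17711. TRINITY_DN18328_c1_g1 had 151304 female and 3 male reads, and TRINITY_DN17837_c0_g2 had 36815 and 3. At that depth a difference of 1 male read is within counting error, so the male limit divides a continuous range.

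**Figure D2:**
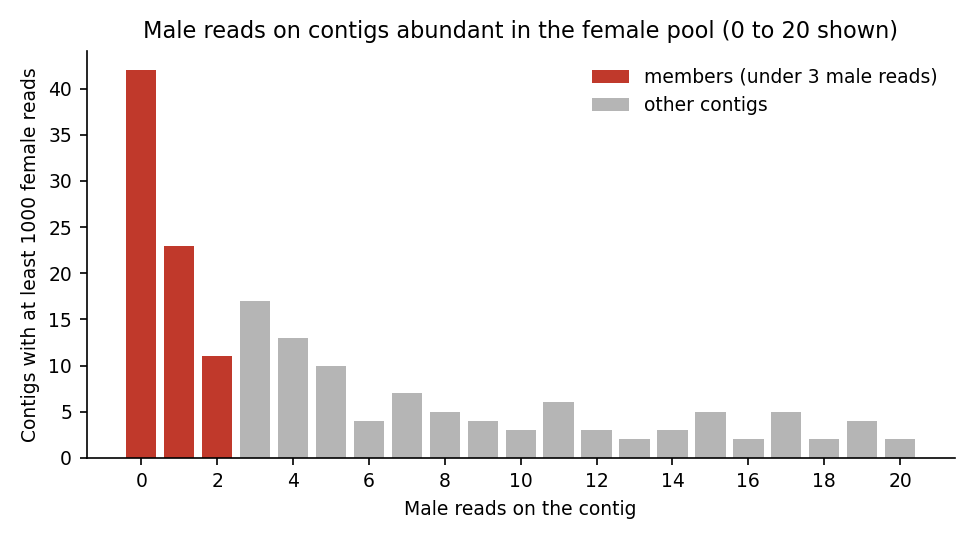
Number of contigs with at least 1000 female reads (vertical axis) by the number of male reads on them, from 0 to 20 (horizontal axis), with the 76 members in red and other contigs in grey. The bars fall from 42 contigs without a male read to 11 with 2, and then stand at 17, 13 and 10 contigs for 3, 4 and 5 male reads.

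On the female side the rule also divided neighbours. The members with fewest female reads were TRINITY_DN18616_c3_g1 with 1015 reads, TRINITY_DN18917_c7_g5 with 1011 and TRINITY_DN17277_c9_g1 with 1009, at an FPKM of 27.0, 26.1 and 21.1. Just under the limit were TRINITY_DN19545_c0_g1 with 997 female reads, TRINITY_DN18787_c3_g2 with 959 and TRINITY_DN17925_c5_g6 with 813, all without a male read and with an FPKM of 20.7, 24.4 and 13.3.

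Most members were not isolated transcripts. The 76 contigs came from 67 components, and 64 of them had at least 1 sibling, or 84.2%, against 79.7% of the other 5154 contigs with at least 1000 female reads. A sibling with at least 3 male reads was present for 62 of the 76 members. Among all 5230 contigs with at least 1000 female reads, 78.9% had such a sibling, so the share among members is near that background. The component of a member held 7 contigs in the median and up to 22, and 27 members lay in components of at least 10 contigs. The other contigs with at least 1000 female reads lay in components with a median of 5.

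The siblings were seen in both libraries. There were 410 of them, with 309175 male reads (1.56% of the male library) and 670292 female reads (2.72% of the female library). At least 3 male reads were found on 386 siblings, or 94.1%, against 86.7% of all contigs in the table. The 2 shares are not like for like, since all contigs had a median of 372 bases and the siblings 1888. Members, with under 3 male reads, are also left out of the siblings by definition. At least 100 male reads were found on 248 siblings and at least 1000 on 50. No male read was found on 14, and 1 or 2 on 10.

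Summed over whole components, male reads therefore returned. In 53 of the 67 components the male sum was at least 3 reads, with a median of 2764 and a highest value of 44504, and 39 components had at least 1000. The rest of these 53 components, without the members, was also compared between the pools. After scaling by column sums, the ratio of female to male over the remaining contigs had a median of 1.68 (quartiles 1.17 and 4.14). It lay within 2-fold in 28 components, leaned to the female pool by 2-fold to 4-fold in 9 and by 4-fold or more in 14. In the remaining 2 components it leaned to the male pool by 2-fold or more. This median depends on the scaling. It was 4.18 under the median of ratios, 3.87 under edgeR's TMM scaling and 1.25 under a median of ratios taken over abundant contigs only. How far the remaining contigs lean to the female pool is therefore not settled by these data. The members were chosen for high female and low male reads, so leaving them out lowers the ratio by design. A like ratio was taken for 3923 other contigs with at least 1000 female reads, in components with no member. Over the siblings of each contig it had a median of 0.96 (quartiles 0.496 and 1.82) by column sums. It was 4-fold or more in 8.97% of these contigs, against 26.4% of the 53 components. This background counts each contig and not each component, so large components enter it several times. The contig left out there was chosen on female reads only. Another scaling would multiply both medians by the same factor.

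With the members included, 49 of the 67 components stood 4-fold or more above the male pool by column sums, and 18 of these 64-fold or more. Of all 3770 components with at least 1000 female reads, 18.1% were that far apart at 4-fold and 1.51% at 64-fold. The members were chosen on this same contrast, so these counts describe the components and nothing is read from them. A further 7 components were 2-fold to 4-fold higher in the female pool, 10 lay within 2-fold, and 1 was over 2-fold higher in the male pool.

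**Figure D3:**
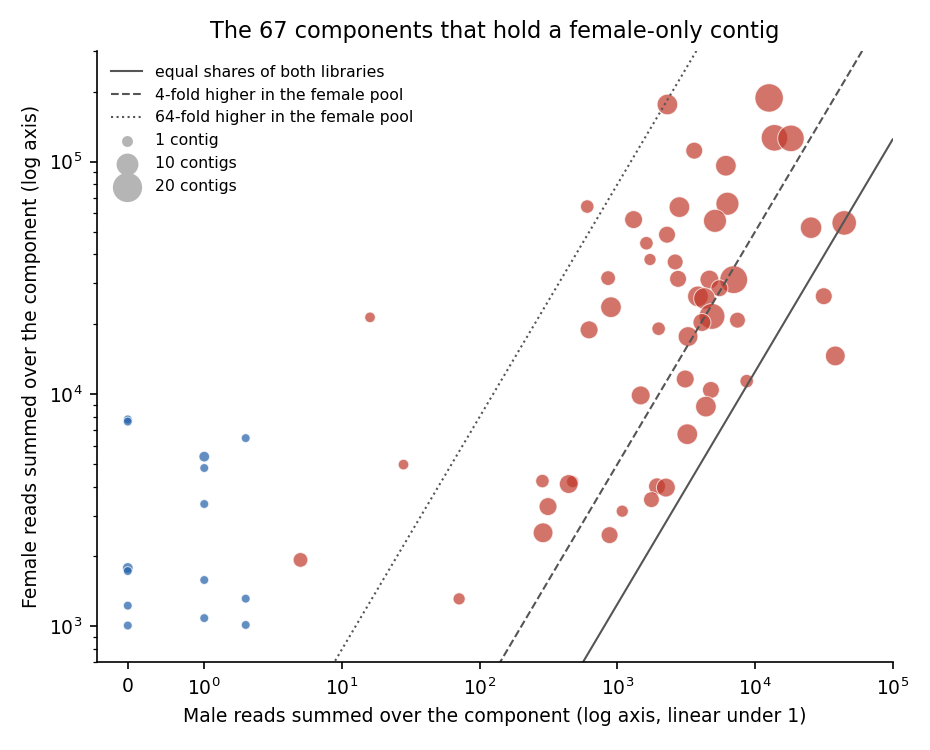
Female reads (vertical, log axis) against male reads (horizontal, log axis, linear under 1) summed over each of the 67 components that hold a member, with the area of a point growing with the number of contigs. Lines mark equal shares of both libraries and 4-fold and 64-fold higher shares in the female pool. Blue points are the 14 components with under 3 male reads, all of 1 or 2 contigs, and red points are the other 53, of which 39 have at least 1000 male reads.

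Single components show how the reads were divided. Of the 67 components, 8 held more than 1 member, with 17 members in all. The siblings named in the 4 of these with most female reads were picked after their values were seen. TRINITY_DN18926_c1 holds 22 contigs, 2 of them members. TRINITY_DN18926_c1_g17, given above, and TRINITY_DN18926_c1_g21, of 705 bases with 56.2% GC and 29750 female reads and no male read, held 90.2% of the component's 187991 female reads. The other 20 contigs had 12675 male and 18423 female reads, a ratio of female to male of 1.17 by column sums. The sibling with most reads in the male pool, TRINITY_DN18926_c1_g2 of 5570 bases, had 4697 male and 3771 female reads.

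In TRINITY_DN18661_c4 the siblings leaned the same way as the members. Beside the 2 members described above, TRINITY_DN18661_c4_g5 of 478 bases had 28970 female and 3 male reads and missed the rule by 1 read. TRINITY_DN18661_c4_g2 of 1002 bases had 51217 female and 66 male reads, a ratio of 623 by column sums. The 9 contigs outside the rule together stood at 29.8-fold higher in the female pool by column sums. Here the female-biased reads were spread over at least 4 contigs of the component.

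TRINITY_DN16902_c1 and TRINITY_DN17381_c2 each held 2 members as well. In TRINITY_DN16902_c1, of 7 contigs, TRINITY_DN16902_c1_g3 was joined by TRINITY_DN16902_c1_g6, of 1914 bases with 20589 female reads and 1 male read. Its sibling TRINITY_DN16902_c1_g5 had 17195 female and 26 male reads. The sibling TRINITY_DN16902_c1_g4 had 502 female and 1346 male reads and was 3.34-fold higher in the male pool by column sums. In TRINITY_DN17381_c2, of 8 contigs, TRINITY_DN17381_c2_g6 had 34897 and TRINITY_DN17381_c2_g1 14305 female reads, both without a male read. The other 6 contigs of TRINITY_DN17381_c2 had 7102 female and 1314 male reads.

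Some of the members with most male reads around them sat beside siblings that were higher in the male pool by column sums. TRINITY_DN16924_c2_g8, of 862 bases, had 23462 female and 2 male reads, while its sibling TRINITY_DN16924_c2_g2, of 960 bases, had 8074 female and 36979 male reads and was 5.71-fold higher in the male pool by column sums. Summed over the 16 contigs of TRINITY_DN16924_c2, the ratio of female to male was 0.983, so by column sums the component as a whole took nearly equal shares of both libraries. TRINITY_DN17484_c2_g10, of 746 bases, had 4318 female reads and 1 male read, beside TRINITY_DN17484_c2_g5, of 9325 bases, with 5996 female and 35769 male reads. That component as a whole had 38355 male and 14586 female reads, the only one of the 67 over 2-fold higher in the male pool by column sums.

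TRINITY_DN18401_c2_g1, at 4520 bases the longest member, had 7473 female reads and no male read. Its sibling TRINITY_DN18401_c2_g2, of 1377 bases, had 16096 female and 28480 male reads. TRINITY_DN17294_c3_g6 had 15341 female reads and no male read, beside TRINITY_DN17294_c3_g2 with 17587 female and 14682 male reads. For TRINITY_DN17679_c2_g7 the sibling with most male reads, TRINITY_DN17679_c2_g5, had 15287 female and 11269 male reads, close to equal shares by column sums.

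**Figure D4:**
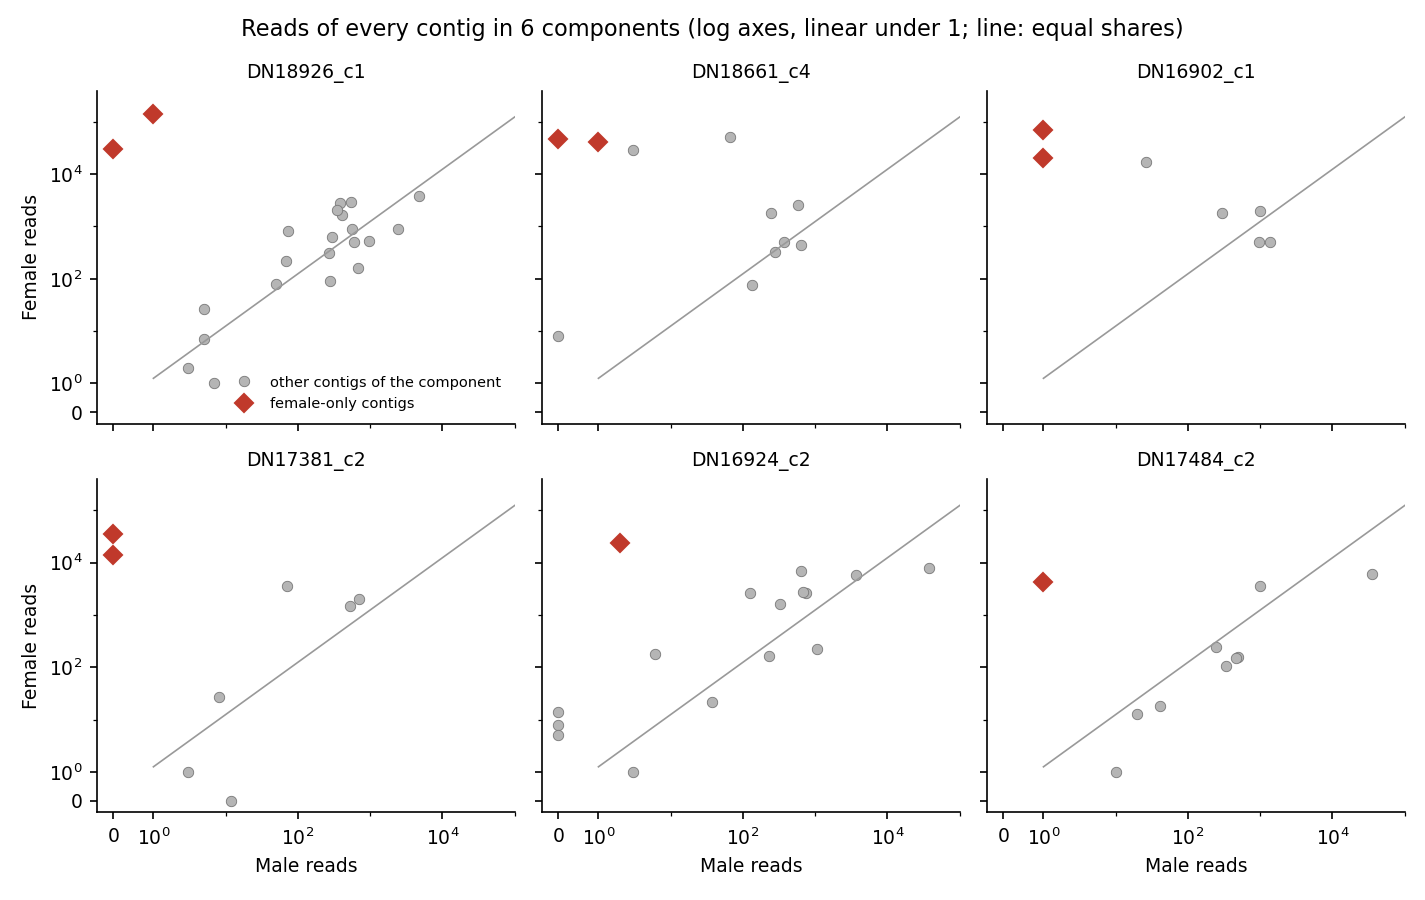
Female reads (vertical) against male reads (horizontal) of every contig in 6 components, on log axes that are linear under 1, with members as red diamonds, siblings as grey circles and a line at equal shares of both libraries. The first 4 panels are the components with 2 or more members and most female reads, and the last 2 are those with most male reads on the siblings of a member. Members lie at 0 to 2 male reads, while most siblings lie closer to the line. In DN18661_c4 and DN16902_c1 siblings with 3, 66 and 26 male reads also lie far above it.

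Siblings with the opposite pattern were few, as in the table as a whole. Of the 410 siblings, 0 had at least 100 male reads with under 3 female reads, against 290 contigs, or 0.3%, of the whole table. With at least 20 male and under 3 female reads there were 3 siblings, or 0.732%, against 2.1% of the table. These were TRINITY_DN18860_c1_g2 with 59 male reads and no female read, TRINITY_DN18860_c1_g7 with 53 and 2, and TRINITY_DN17118_c3_g4 with 27 and 2, named after their values were seen. Among the 349 siblings with at least 20 reads in all, 88, or 25.2%, leaned to the female pool by 4-fold or more and 38, or 10.9%, to the male pool, by column sums. Over the 38464 contigs of the table with at least 20 reads, 9.06% were that much higher in the female pool and 30.9% in the male pool. That background is unlike the siblings, since all contigs had a median of 372 bases and the siblings 1888. Of the other 5154 contigs with at least 1000 female reads, a limit the siblings need not meet, 26.8% were 4-fold or more higher in the female pool. These background shares were taken by column sums only. The sibling counts became 156 and 8 under the median of ratios, and 69 and 63 under a median of ratios taken over abundant contigs only, so the size of the lean rests on the scaling.

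The sources used here do not say how reads fitting several contigs were treated. Where siblings share sequence, the division of reads among them, including the near-zero male counts of members, is therefore uncertain. Of the 64 members with siblings, 35 had more female reads than any sibling, and 28 held at least 50% of the female reads of their component. Members were chosen for high female reads, which favours both counts, and no like share was taken for other contigs. Both counts are therefore a description and do not set members apart from other abundant contigs.

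A smaller set of members lay in components with under 3 male reads in all. In 14 of the 67 components the male reads of all contigs summed to under 3, and among all 3770 components with at least 1000 female reads these 14 are 0.371%. Each of the 14 held 1 member, 12 of them as the only contig. In those 12 the male sum is the member's own, which the rule keeps under 3. Together the 14 components had 46154 female and 11 male reads. Their members held 3.52% of all members' female reads, so most of those reads lay in components with at least 3 male reads in all. These contigs are named here after their values were seen.

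The most abundant of them were TRINITY_DN44430_c0_g1, of 830 bases with 39.0% GC, and TRINITY_DN17812_c1_g1, of 2662 bases with 39.97% GC. TRINITY_DN44430_c0_g1 had 7777 female reads, no male read and a female FPKM of 368, and TRINITY_DN17812_c1_g1 had 7612 female reads, no male read and an FPKM of 112. TRINITY_DN50925_c0_g1, of 1477 bases with 50.9% GC, had 6462 female and 2 male reads. TRINITY_DN13411_c0_g1, of 1137 bases, had 4805 female reads and 1 male read. All 4 were the only contig of their component.

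TRINITY_DN15595_c0 was 1 of 2 such components with a second contig. Its member TRINITY_DN15595_c0_g1, of 3002 bases, had 4721 female reads and no male read, and its sibling TRINITY_DN15595_c0_g2, of 1837 bases, had 657 female reads and 1 male read, so both contigs of the component were female-biased. The other was TRINITY_DN13304_c0, whose member TRINITY_DN13304_c0_g1 had 1777 female reads and whose sibling had 8, with no male read on either.

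TRINITY_DN18812_c5_g1 had 3364 female reads and 1 male read, TRINITY_DN16444_c0_g1 had 1731 and none, and TRINITY_DN14381_c0_g1 had 1584 and 1. TRINITY_DN14983_c0_g1 had 1317 female and 2 male reads, TRINITY_DN19227_c0_g1 1229 and none, and TRINITY_DN15536_c0_g1 1086 and 1. TRINITY_DN18616_c3_g1 and TRINITY_DN17277_c9_g1, at the lower limit of the rule, complete the 14. Their female reads, 1009 to 7777 with a median of 1754, lay low in the range of the members. The other 62 members had a median of 9979 (quartiles 2031 and 24391). None of the 31 members with at least 10000 female reads belonged to the 14. All 31 had a sibling, but so did 96.1% of the 232 other contigs with that many female reads. Single-contig components are thus rare at that depth in any case.

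The names also allow a wider grouping, made here by joining components that share the number after DN. The 76 members fell into 66 such groups, of which 9 had under 3 male reads in all. Of the 14 components just described, 9 stayed under 3 male reads at that level. Where such a group is a single contig, the rule fixes this. The other 5, those of TRINITY_DN17812_c1_g1, TRINITY_DN18812_c5_g1, TRINITY_DN19227_c0_g1, TRINITY_DN18616_c3_g1 and TRINITY_DN17277_c9_g1, belonged to groups with 272 to 2690 male reads in all.

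A few components lay between these sets. TRINITY_DN18826_c1_g2, of 555 bases, had 21330 female reads and 1 male read, and its only sibling had 47 female and 15 male reads, so the member held 99.8% of the component's female reads. TRINITY_DN18355_c5_g1 had 4919 female reads and 1 male read, beside a single sibling with 51 female and 27 male reads. TRINITY_DN18496_c10_g1 had 1759 female reads and 1 male read in a component of 5 contigs with 5 male reads in all. In these 3 components male reads were few. The rule keeps a member under 3 male reads, so it is fixed by the choice that most of them fell on siblings. These components were also picked out after their values were seen.

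Members were shorter than the other contigs with at least 1000 female reads. The rule named no length, but raw reads grow with contig length, so length is not independent of the limit on male reads and the gap is given as a description. Read numbers differed too, with a median of 5302 female reads in members and 1950 in the others. Their lengths ran from 456 bases in TRINITY_DN17086_c0_g6 to 4520 in TRINITY_DN18401_c2_g1, the first with 10314 female reads and no male read, with a median of 1411 (quartiles 818 and 1943). The other 5154 contigs with at least 1000 female reads had a median of 3300 (quartiles 2136 and 5036), and 62 of the 76 members lay below their lower quartile. Under 1000 bases were 25 members, or 32.9%, against 3.82% of the other contigs. At least 2000 bases long were 18 members, or 23.7%, against 78.2%. The gap was present in both abundance classes. Members with at least 10000 female reads had a median of 1223 bases against 2989 in the 232 other contigs of that class, and those with fewer reads a median of 1477 against 3315.

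Part of this gap moved with the choice of the other contigs. Against non-members with a female FPKM of at least 16.7, the lowest of any member, the median was 2107 bases in place of 3300. The siblings had a median of 1888 bases (quartiles 642 and 3595). Of the 64 members with siblings, 55 were shorter than the sibling with most male reads. That sibling was picked by raw reads, which grow with length, and no like share was taken for other contigs. The count is therefore a description and adds nothing to the gap.

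**Figure D5:**
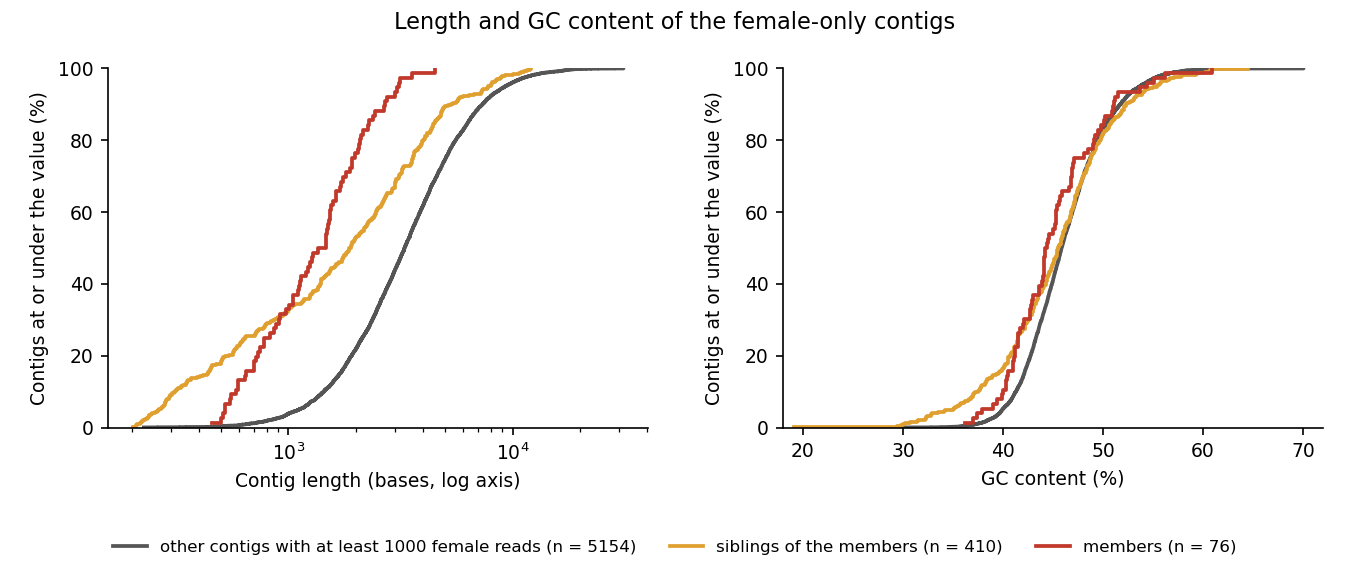
Cumulative share of contigs (vertical axis, %) by contig length in bases (left, log axis) and GC content in % (right), for the 76 members, their 410 siblings and the other 5154 contigs with at least 1000 female reads. The members' length curve reaches 50% at 1411 bases and that of the other contigs at 3300, while the GC curves reach 50% at 44.3% and 45.9%.

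GC content differed less. The members had a median GC content of 44.3% (quartiles 41.5 and 47.3), against 45.9% (43.3 and 48.7) in the other contigs with at least 1000 female reads and 45.5% in the siblings. The extremes were TRINITY_DN17287_c5_g3 at 36.2% GC, with 2245 female and 2 male reads, and TRINITY_DN17498_c2_g2 at 60.9% GC, with 22973 female reads and no male read. A GC content of at least 50% was found in 12 members, or 15.8%, against 17.1% of the other contigs.

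Among the members the abundant ones were richer in GC. The 31 members with at least 10000 female reads had a median GC content of 47.0%, and the 45 with fewer reads 43.0%. The corresponding medians of the other contigs were 45.5% and 45.9%. Spearman's rho between female reads and GC content was 0.45 across the 76 members and -0.02 across the other 5154 contigs. This is a description across contigs, which share 1 library and, for 17 of the members, a component with another member. The 14 members in components with under 3 male reads had a median GC content of 43.96% and a median length of 1618 bases. The other 62 had 44.8% and 1283 bases.

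In base composition by strand, 2 members stood apart from the rest in the balance of C and G. TRINITY_DN17498_c2_g2 had 307 C and 138 G among its 731 bases, so that the difference of C and G was 37.98% of their sum. In TRINITY_DN18926_c1_g21 it went the other way, with 146 C and 250 G, or -26.3%. No other member passed 20% in either direction for C and G, and the median size of this difference was 5.32% in members and 3.84% in the other contigs. For A and T the difference passed 20% in more members. It was -29.8% of their sum in TRINITY_DN14381_c0_g1, -24.9% in TRINITY_DN18926_c1_g21, 23.1% in TRINITY_DN17498_c2_g2 and 20.4% in TRINITY_DN17996_c3_g2. Its median size was 5.29% in members and 4.18% in the other contigs. The share of the other contigs past 20% was not taken, for C and G or for A and T. Members were also shorter, with a median of 1411 bases against 3300, and the medians of both differences make no allowance for length. Which strand of a transcript a contig shows is not given in the sources used here, so the sign has no direction along the transcript. These contigs were singled out after their values were seen.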

How the data were processed

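The values come from 1 pooled male and 1 pooled female library. Trizol extraction of frozen organs and Illumina TruSeq RNA libraries are given in the labels' protocols. The submitters' processing notes name cutadapt 1.8, Bowtie2 2.2.6 and DESeq 1.16.0, with no roles. The counting program and assembler version are not given in these sources. Per the file headers, the authors deposited raw read counts and FPKM for each library, and the length, base numbers and GC percent of each contig. The deposited FPKM equal counts divided by length and by library totals of 20653893 (male) and 25478638 (female), to within a relative 5.52e-08. All columns were used.

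Members were selected on raw counts. Siblings share the name without its final g number. Ratios were scaled by column sums (male to female 0.803). This was chosen over the median of ratios, which gave 2, because the deposited FPKM also rest on library totals. TMM scaling used edgeR 4.0.16, and other steps used pandas 2.3.3 and scipy 1.17.1 in Python 3.11.15. A ratio against 0 is a bound at 3 male counts per library, and intervals are 95% (Wilson for shares, exact Clopper-Pearson for ratios). The steps for selection, ratios and sibling counts were checked on simulated counts. There the contigs meant as members had no male reads by design. The simulated counts varied by counting error only, and siblings shared no reads. The check therefore covers the steps and not the uncertainty of these data.

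The members and lists were chosen with earlier results of these data known. Contigs named were the 10 members with most female reads, the 5 highest by FPKM, the extremes of length and GC, the members of the 4 components with several members and most female reads, the 5 with most male reads on siblings, each with the sibling of most male reads, and those next to each limit. Names outside this rule are marked in the text. Alternatives were other read limits, scalings, sibling definitions and reference contigs. No sequence of any contig was used here.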

Additional observations from a re-analysis of the deposited data

How the results depend on the processing

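No paired analysis was possible because each group has 1 library and the result comes from no test. Of the alternatives for the main results, 39 left a value within 1.5 times, its interval or its quartiles, and 27 were counted as moved. Other scalings of the lowest bound were all put among the 27 without that comparison, although 201-fold is within 1.5 times of 270-fold. The 39 include every value with male reads scaled to the female depth. At this depth ratio that setting could not change the 76 members, so it shows no stability. Medians of length and GC content counted as unchanged anywhere within the quartiles, which is a wide limit. With no male read at all, the members numbered 42, in 37 components, with 2.22% of female counts. Of these members, 37 had a sibling and 35 a sibling of male reads, and 7 components had under 3 male reads. With male reads under 10 they numbered 136 in 122 components, with 8.80% of female counts, 110 with a sibling and 108 with one of male reads. A female minimum of 500 or 2000 reads gave 5.29% or 5.10% of female counts, and at 2000 reads 6 components had under 3 male reads. With the member rule unchanged, 9 groups sharing the number after DN had under 3 male reads. The share of the library total behind the FPKM was 5.07%. Chosen by female FPKM, the reference had a median of 2107 bases. The lowest bound of the members without a male read, 270-fold by column sums, was 673-fold under the median of ratios, 622-fold under TMM and 201-fold with a median of ratios taken from 4577 abundant contigs (mean count from 1000 up). Scalings of component values were added after seeing the data. The rest of a component had a median ratio of 4.18 under the median of ratios, 3.87 under TMM and 1.25 under the last scaling. Siblings at least 4-fold higher numbered 156 (female) and 8 (male) under the median of ratios and 153 and 14 under TMM, and 69 and 63 under the last scaling. Depth limits the male side, where 0 and 3 reads differ by no more than counting error.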
